A study of Mus musculus with 24 samples.

Results

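The SLC22 organic ion transporters are a family of membrane proteins, and 9 of its genes were named for this account: Slc22a3, Slc22a5, Slc22a7, Slc22a18, Slc22a23, Slc22a26, Slc22a27, Slc22a28 and Slc22a30. They were taken as the rows of the expression table whose gene symbol in the annotation of the array was one of these names. The genes were chosen with earlier results of these data known, so counts of them beside shares of all genes are descriptions and not tests. Of the 9 genes, 8 were found among 24704 genes, each as 1 feature, and Slc22a3 was not analysed here. The values are log2 expression from whole-liver RNA on 24 Affymetrix mouse gene arrays, so that a difference of 1 is a doubling, and a level of one gene cannot be set against that of another. The median and lower quartile of all array values are given only to show where a signal was low. The arrays fall into 8 groups of 3, by genotype, sex and diet. HepCAV1ko mice carry floxed Cav1 and a Cre recombinase driven by the albumin promoter, which is active in hepatocytes and leaves Cav1 intact in the other cells of the liver. HepCAV1wt mice are their littermates without the knockout. Mice of both genotypes had regular chow until 8 weeks of age and then 4 weeks of either the MCD diet, free of methionine and choline, or a control diet that contains both, so that livers were those of 12-week-old mice. The labels give the 3 arrays of each group numbers but do not say that they are 3 mice, so the p-values cover the spread among arrays, which may be technical.

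Transporters of the SLC22 family sit in the plasma membrane and move charged small molecules, among them organic anions, organic cations and the zwitterion carnitine, between blood and cells. In the liver they take up drugs, nucleotides, bile acid conjugates and steroid sulfates from the blood at the hepatocyte surface. Several rodent members are transcribed mainly in one sex, as are many cytochromes P450 of mouse liver. Such sex differences in rodent liver are known to follow the pattern of growth hormone release, which acts through the transcription factor STAT5b.

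Of the 8 measured genes, 4 lie in 1 cluster on chromosome 19, and these 4 passed the diet comparison in males of both genotypes, as did Slc22a7. Slc22a26 and Slc22a27 had the largest sex differences of the 8 on the control diet. In the RefSeq annotation the 6 protein-coding genes of this stretch run in the order Slc22a19, Slc22a26, Slc22a27, Slc22a28, Slc22a29 and Slc22a30, with 8 pseudogenes and 1 long noncoding RNA among them. The windows from 250 bases before to 50 bases after the start of 4 of them are printed 5′ to 3′ because neighbours of this cluster gave opposite results in males. They are RefSeq sequences on build GRCm38.p6, all from the minus strand of chromosome 19. The window of Slc22a26 is chr19:7802618-7802917, that of Slc22a27 is chr19:7965978-7966277, that of Slc22a28 is chr19:8131933-8132232 and that of Slc22a30 is chr19:8405056-8405355. In the windows of Slc22a26 and Slc22a27 the capitals mark motif matches. In those of Slc22a28 and Slc22a30 they mark the mismatched bases of this aligned pair, whose gap positions are left in lower case.
Slc22a26: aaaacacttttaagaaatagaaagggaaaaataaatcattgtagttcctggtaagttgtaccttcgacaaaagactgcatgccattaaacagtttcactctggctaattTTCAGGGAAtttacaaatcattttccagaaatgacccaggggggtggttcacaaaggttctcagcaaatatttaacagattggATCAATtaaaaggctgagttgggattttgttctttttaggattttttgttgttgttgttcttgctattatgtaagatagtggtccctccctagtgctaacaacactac
Slc22a27: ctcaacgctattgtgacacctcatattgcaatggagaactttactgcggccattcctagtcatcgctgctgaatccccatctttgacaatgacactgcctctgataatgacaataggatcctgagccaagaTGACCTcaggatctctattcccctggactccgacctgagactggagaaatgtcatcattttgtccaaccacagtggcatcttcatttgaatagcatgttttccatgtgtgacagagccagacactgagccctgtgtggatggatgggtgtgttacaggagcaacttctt
Slc22a28: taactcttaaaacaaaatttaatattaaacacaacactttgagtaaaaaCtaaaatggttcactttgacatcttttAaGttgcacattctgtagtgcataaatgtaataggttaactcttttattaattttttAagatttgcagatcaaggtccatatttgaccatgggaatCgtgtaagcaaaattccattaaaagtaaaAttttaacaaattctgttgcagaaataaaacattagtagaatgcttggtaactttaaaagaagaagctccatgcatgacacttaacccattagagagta
Slc22a30: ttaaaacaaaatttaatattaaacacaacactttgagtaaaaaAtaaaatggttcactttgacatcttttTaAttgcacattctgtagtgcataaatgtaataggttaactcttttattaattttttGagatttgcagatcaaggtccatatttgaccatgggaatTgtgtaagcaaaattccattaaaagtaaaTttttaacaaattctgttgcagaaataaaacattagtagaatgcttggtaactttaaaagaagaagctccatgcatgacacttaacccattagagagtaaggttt

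The windows of Slc22a28 and Slc22a30 were nearly the same sequence, with 288 identical bases, 6 mismatches and 12 gap positions in a global alignment (94.1% identical). Those of Slc22a26 and Slc22a27 were 48.6% identical to each other, and the other pairs among the 6 cluster genes ranged from 46.2% to 68.7%. These windows lie mostly before the start, and no transcript or probe sequences were compared. The sources used here do not say whether the probes tell Slc22a28 and Slc22a30 apart, so the pair may share part of its hybridisation signal. Motif searches covered both strands of the window. The STAT5 motif TTCNNNGAA, which reads the same on both strands, was found once in the window of Slc22a26 and in 8.3% of 32851 mouse windows of this length. The HNF6 motif ATTGAT was found once in the window of Slc22a26 and in 7.54% of all windows. The nuclear receptor half-site AGGTCA was found once in that of Slc22a27, and in 16.3% of all windows. None of these 3 motifs, nor the HNF1 half-site GTTAAT that 7.1% of all windows hold, was found in the windows of Slc22a28 and Slc22a30, and no matches overlapped each other.

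Slc22a26 and Slc22a27, both of the organic anion transporter branch of the family, were far lower in males than in females on the control diet, and the MCD diet raised both in males of either genotype. Slc22a26 had log2 values of 3.58, 3.84 and 3.48 in control-fed HepCAV1ko males, against 10.33, 9.61 and 9.70 in control-fed HepCAV1ko females. In HepCAV1wt it had 4.62, 3.17 and 3.84 in control-fed males, against 10.12, 9.88 and 10.14 in control-fed females. No male array came near a female one, and the male means of 3.63 and 3.88 lay close to 3.83, the median of all genes on the arrays. The difference of males minus females was -6.25 (SE 0.54, adjusted p = 9.06e-08) in HepCAV1ko and -6.17 (SE 0.54, adjusted p = 1.12e-07) in HepCAV1wt, a 76.0-fold and a 71.8-fold lower level in males. Signal over background is unknown near this median, so these and the later linear folds of Slc22a26 describe array values only. These and the following p-values are from limma with Benjamini-Hochberg adjustment over all genes, and an adjusted p under 0.05 counts as passed.

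Slc22a27 had 1.93, 2.61 and 2.76 in control-fed HepCAV1ko males, against 6.97, 7.71 and 7.48 in control-fed HepCAV1ko females. In HepCAV1wt it had 2.31, 2.51 and 2.80 in control-fed males, against 7.60, 7.42 and 7.59 in control-fed females. The male means of 2.44 and 2.54 lay below 2.60, the lower quartile of all genes, so that on the control diet Slc22a27 was at the low end of the array in males. The difference of males minus females was -4.95 (SE 0.42, adjusted p = 6.4e-08) in HepCAV1ko and -5.00 (SE 0.42, adjusted p = 6.55e-08) in HepCAV1wt.

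On the MCD diet, both genes left this low level in males. Slc22a26 had 5.65, 6.32 and 7.69 in MCD-fed HepCAV1ko males, above all 3 of their control-fed counterparts. The log2 fold change was 2.92 (SE 0.54, adjusted p = 0.00153), a 7.56-fold rise. In MCD-fed HepCAV1wt males it had 5.48, 5.36 and 8.16, and the log2 fold change of 2.45 (SE 0.54, adjusted p = 0.00877) was a 5.48-fold rise. Without replicate 2 of the control-fed HepCAV1wt males, the lowest of their 3 arrays, this rise no longer passed (adjusted p = 0.064), and without replicate 3 of the MCD-fed HepCAV1wt males, the highest of theirs, the log2 fold change was 1.54 (adjusted p = 0.0398). When the HepCAV1wt male arrays were fitted alone, the rise of Slc22a26 did not pass either (limma adjusted p = 0.102). Slc22a27 had 6.11, 6.03 and 7.05 in MCD-fed HepCAV1ko males and 5.90, 4.57 and 7.34 in MCD-fed HepCAV1wt males, again above every control-fed male. Its log2 fold changes were 3.96 (SE 0.42, adjusted p = 2.9e-06) in HepCAV1ko and 3.40 (SE 0.42, adjusted p = 3.04e-05) in HepCAV1wt, where it was 2.70 without replicate 3 of the MCD-fed males. No linear fold is given for this gene, since the control-fed males lay at the low end of the array, where signal over background is unknown. The SD in MCD-fed males was 1.04 and 1.58 for Slc22a26 and 0.57 and 1.39 for Slc22a27 in HepCAV1ko and HepCAV1wt, where it was 0.33 or less in MCD-fed females for both genes. In either genotype, replicate 3 of the MCD-fed males had the highest value of both genes.

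In females the diet did not move the 2 genes alike. Slc22a26 had 8.96, 8.52 and 9.15 in MCD-fed HepCAV1ko females and 8.28, 8.92 and 8.50 in MCD-fed HepCAV1wt females, below all control-fed females, with log2 fold changes of -1.003 (adjusted p = 0.516) and -1.48 (adjusted p = 0.132) that did not pass. Slc22a27 had 8.34, 8.40 and 8.68 in MCD-fed HepCAV1ko females and 8.35, 8.59 and 8.51 in MCD-fed HepCAV1wt females, above all control-fed females, with log2 fold changes of 1.09 (adjusted p = 0.269) and 0.95 (adjusted p = 0.238). When the 6 HepCAV1wt female arrays were fitted alone, both differences passed, with adjusted p = 0.00482 for Slc22a26 and 0.00935 for Slc22a27.

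The diet response of both genes differed between the sexes. Averaged over genotypes, the diet effect in males minus that in females was 3.93 (SE 0.54, adjusted p = 3e-04) for Slc22a26 and 2.67 (SE 0.42, adjusted p = 0.00154) for Slc22a27. For Slc22a28 it was -1.88 (SE 0.40, adjusted p = 0.0302), and for Slc22a30 it was -1.35 (adjusted p = 0.365), which did not pass. Of the 8 genes, 2 were higher and 1 was lower in this comparison, where 0.316% of all genes were higher and 0.219% lower (0.534% in either direction). The call of Slc22a28 was lost when any 1 of 11 arrays was left out, with adjusted p between 0.0503 and 0.0663, and then 2 genes passed.

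**Figure D1:**
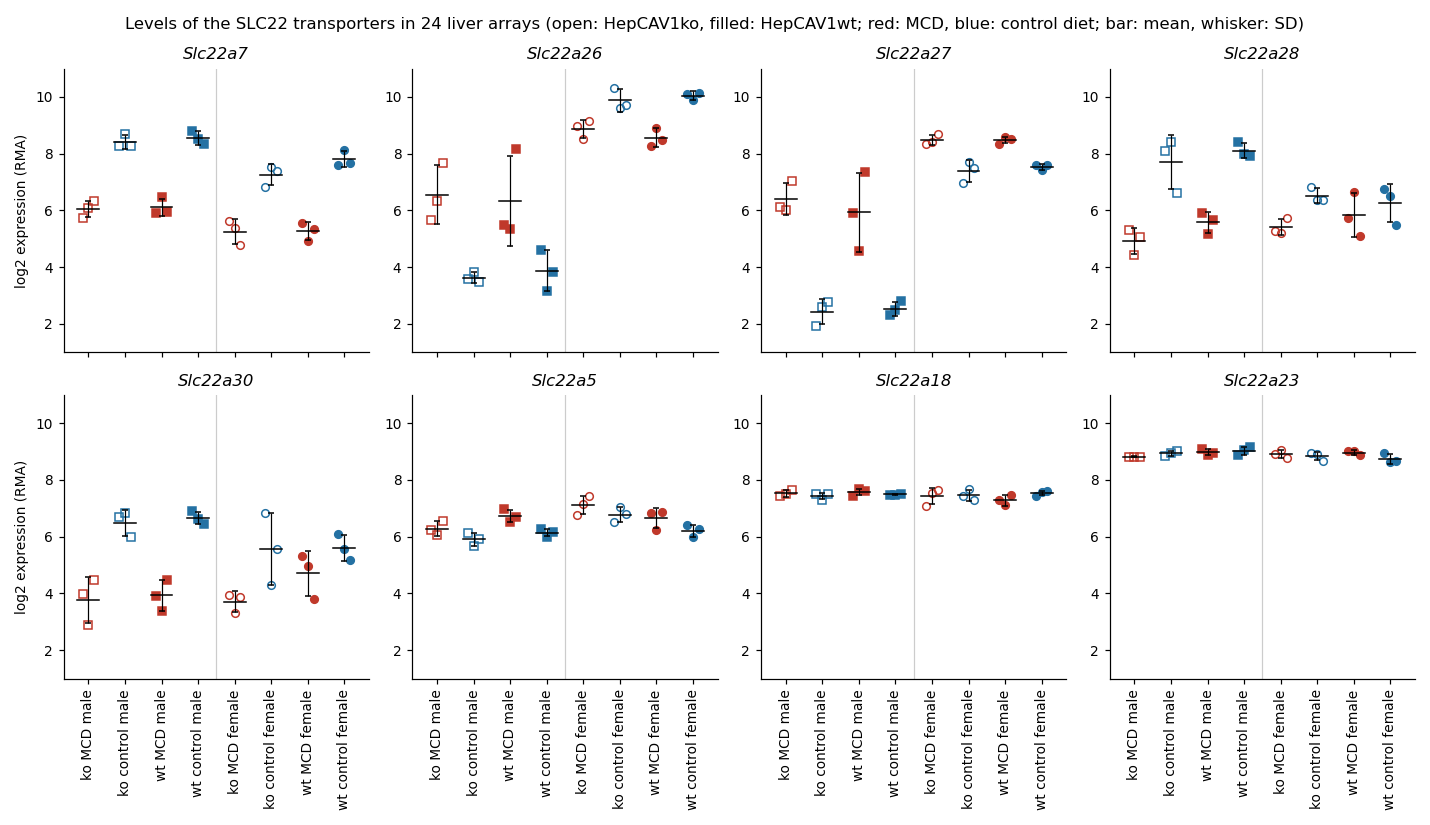
Log2 expression (vertical axis) of the 8 genes in each of 24 arrays, by genotype, diet and sex (horizontal axis, with ko for HepCAV1ko and wt for HepCAV1wt), with the mean as a bar and the SD as a whisker (n = 3). Slc22a26 and Slc22a27 are lowest in control-fed males and highest in females, with the means of MCD-fed males between them, while Slc22a7 is lower on the MCD diet in all 4 pairs of groups.

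Relative to the control-fed sex gap, the mean of MCD-fed males had moved 46.7% of the way toward control-fed females for Slc22a26 in HepCAV1ko and 39.8% in HepCAV1wt, and 37.6% and 24.98% without replicate 3 of the MCD-fed males. For Slc22a27 this share was 80.0% in HepCAV1ko and 68.0% in HepCAV1wt, and 73.4% and 54.0% without that replicate, all measured from control-fed male values at the low end of the array. On the MCD diet, males nevertheless remained below females of the same genotype in every array. The difference of males minus females for Slc22a26 was -2.33 (adjusted p = 0.0926) in HepCAV1ko and -2.23 (adjusted p = 0.117) in HepCAV1wt, neither of which passed. For Slc22a27 it was -2.08 (SE 0.42, adjusted p = 0.0372) in HepCAV1ko and -2.55 (SE 0.42, adjusted p = 0.00487) in HepCAV1wt. Slc22a27 was the 1 gene of the 8 that passed, as lower in males, in HepCAV1ko and in HepCAV1wt. In HepCAV1ko 0.202% of all genes passed, 0.0931% as higher and 0.109% as lower in males, and in HepCAV1wt 0.215% passed, 0.0891% as higher and 0.125% as lower. In HepCAV1ko this call was lost when any 1 of 5 of the 6 arrays was left out (adjusted p from 0.0835 to 0.213), and without MCD male replicate 3 both genes passed. In HepCAV1wt, too, both genes passed without MCD male replicate 3 (Slc22a26 adjusted p = 0.00038).

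**Figure D2:**
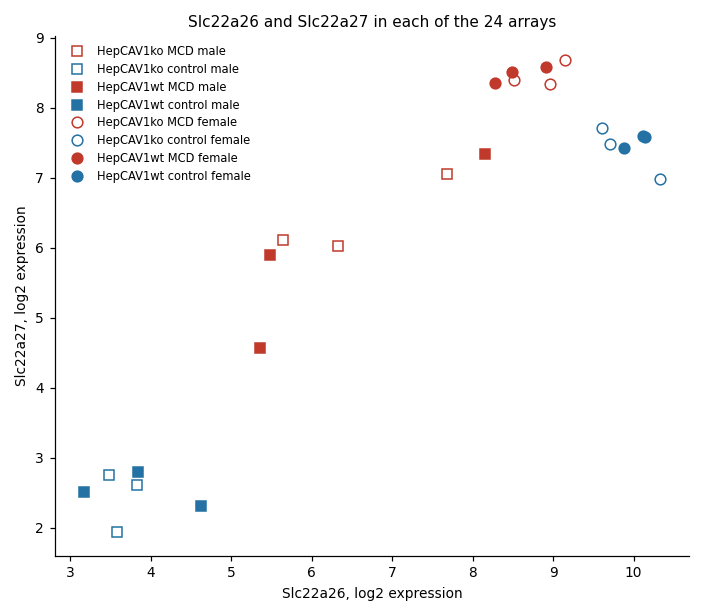
Log2 expression of Slc22a26 (horizontal axis) and Slc22a27 (vertical axis) in each of 24 arrays, with males as squares, females as circles, the MCD diet in red, the control diet in blue, HepCAV1ko open and HepCAV1wt filled. Control-fed males lie at the lower left, females at the upper right, and the 6 MCD-fed males between them in Slc22a26. In Slc22a27 replicate 3 of the MCD-fed males of each genotype, at 7.05 and 7.34, overlaps the females, the lowest of which is at 6.97.

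Slc22a26 and Slc22a27 varied together over the arrays. Their Pearson correlation was 0.91 over all 24 arrays, which share the sex and diet groups, 0.68 after each group's mean was subtracted and 0.88 over the 6 MCD-fed males. Whether the probes tell Slc22a26 and Slc22a27 apart was not checked. The genes whose pattern over the 24 arrays was most like that of Slc22a26 were Cyp3a44 (r = 0.956), Cyp2b13 (r = 0.951) and Acot3 (r = 0.940). The first and second encode cytochromes P450 and Acot3 an acyl-CoA thioesterase. For Slc22a27 they were Trim24, a transcriptional cofactor (r = 0.954), Nipal1, a magnesium transporter (r = 0.939), and again Cyp2b13 (r = 0.936). These genes were picked from the whole table for their likeness, and the correlations are descriptions over groups that differ in mean.

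Slc22a28 and Slc22a30, the close pair of the same cluster, went the other way in males. The MCD diet lowered both in males of either genotype, and on this diet the sexes overlapped. On the control diet the sexes already overlapped for both genes in HepCAV1ko, but not in HepCAV1wt. Slc22a28 had 5.29, 4.42 and 5.08 in MCD-fed HepCAV1ko males, against 8.09, 8.42 and 6.63 in control-fed HepCAV1ko males. In HepCAV1wt males it had 5.90, 5.18 and 5.67 on the MCD diet, against 8.40, 8.00 and 7.91 on the control diet. All MCD-fed males lay below all control-fed males, and the log2 fold changes were -2.78 (SE 0.40, adjusted p = 0.000141) in HepCAV1ko and -2.52 (SE 0.40, adjusted p = 0.00054) in HepCAV1wt, levels 6.87-fold and 5.74-fold lower on the MCD diet.

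Slc22a30 had 3.98, 2.88 and 4.46 in MCD-fed HepCAV1ko males, against 6.68, 6.82 and 5.98 in control-fed HepCAV1ko males. In HepCAV1wt males it had 3.91, 3.39 and 4.49 on the MCD diet, against 6.90, 6.62 and 6.46 on the control diet. The groups again did not overlap, and the log2 fold changes were -2.72 (SE 0.49, adjusted p = 0.00131) in HepCAV1ko and -2.73 (SE 0.49, adjusted p = 0.00164) in HepCAV1wt. On the MCD diet the male means of 3.77 and 3.93 lay close to the median of all genes.

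In females the differences of this pair were smaller and none passed. Slc22a28 had 5.28, 5.21 and 5.72 in MCD-fed HepCAV1ko females, against 6.83, 6.38 and 6.35 on the control diet, a log2 fold change of -1.12 (adjusted p = 0.222) that passed when these 6 arrays were fitted alone (adjusted p = 0.047). In HepCAV1wt females it had 5.74, 6.65 and 5.12 on the MCD diet, against 6.76, 6.51 and 5.50 on the control diet (-0.42, adjusted p = 0.683), and these arrays overlapped. Slc22a30 had 3.96, 3.31 and 3.89 in MCD-fed HepCAV1ko females, against 6.84, 4.31 and 5.56 on the control diet. Its log2 fold change of -1.85 (SE 0.49, adjusted p = 0.0612) missed the threshold, and without HepCAV1ko control female replicate 2, the lowest of the control-fed arrays, it passed (adjusted p = 0.0093). In HepCAV1wt females Slc22a30 had 5.32, 4.98 and 3.82 on the MCD diet, against 6.08, 5.55 and 5.17 on the control diet (-0.89, adjusted p = 0.379).

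On the control diet both genes had higher means in males than in females. Slc22a28 was higher by 1.85 (SE 0.40, adjusted p = 0.0192) in HepCAV1wt males than in HepCAV1wt females, and this call was lost without control male replicate 1 or 2 or control female replicate 3 (adjusted p from 0.0596 to 0.125). The linear fit without moderated variances lost it too (adjusted p = 0.0721). In HepCAV1ko the difference was 1.19 (adjusted p = 0.201), and HepCAV1ko control male replicate 3, at 6.63, lay within the female range; without it the difference passed (adjusted p = 0.0242). Slc22a30 differed by 0.92 (adjusted p = 0.502) in HepCAV1ko and by 1.06 (adjusted p = 0.419) in HepCAV1wt. On the MCD diet the differences of males minus females were -0.47 and -0.25 for Slc22a28 and 0.06 and -0.78 for Slc22a30 in HepCAV1ko and HepCAV1wt, none of which passed (adjusted p from 0.755 to 1). The widest of these intervals, for Slc22a30 in HepCAV1wt, ran from -1.80 to 0.25.

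The correlation of Slc22a28 and Slc22a30 was 0.90 over 24 arrays and 0.64 after group means were subtracted. Most like Slc22a28 were Hao1, the glycolate oxidase of peroxisomes (r = 0.921), Cped1 (r = 0.916) and Aadat, an aminotransferase of lysine and tryptophan breakdown (r = 0.913). Most like Slc22a30 were Cyp27a1, the sterol 27-hydroxylase of bile acid synthesis (r = 0.922), Lifr, the receptor of leukemia inhibitory factor (r = 0.915), and 2310001H17Rik (r = 0.907).

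**Figure D3:**
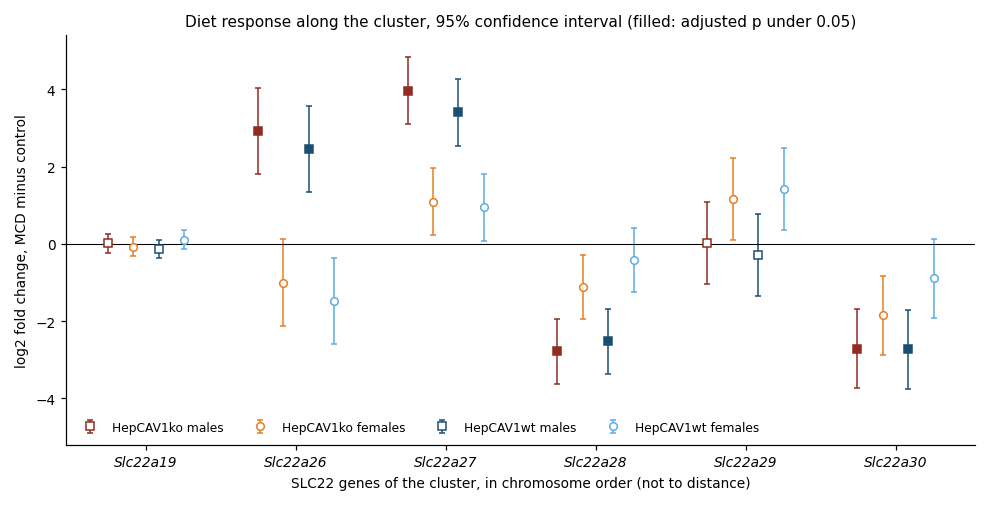
Log2 fold change of the MCD over the control diet (vertical axis, with 95% confidence interval) for the 6 protein-coding SLC22 genes of the cluster in chromosome order (horizontal axis), in HepCAV1ko and HepCAV1wt males (squares) and females (circles), filled where the adjusted p is under 0.05. In males, Slc22a26 and Slc22a27 were higher and Slc22a28 and Slc22a30 lower on the MCD diet, and no female value passed.

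The other 2 genes of the cluster did not pass in any diet comparison. Slc22a19 stayed between 2.01 and 2.21 in group mean, under the lower quartile of all genes. Slc22a29, which lies between Slc22a28 and Slc22a30, had 3.21, 3.53 and 3.89 in MCD-fed HepCAV1ko females, against 1.64, 1.80 and 3.73 on the control diet (log2 fold change 1.15, adjusted p = 0.375). In HepCAV1wt females it had 2.59, 4.64 and 5.24 on the MCD diet, against 2.42, 2.72 and 3.06 on the control diet (1.42, adjusted p = 0.125). In males its group means were 2.33 or lower on both diets.

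Slc22a7, or OAT2, an organic anion transporter of the hepatocyte surface, fell on the MCD diet in both sexes and both genotypes. It had 5.74, 6.08 and 6.32 in MCD-fed HepCAV1ko males, against 8.28, 8.70 and 8.28 in control-fed HepCAV1ko males. In HepCAV1wt males it had 5.91, 6.46 and 5.96 on the MCD diet, against 8.80, 8.52 and 8.34 on the control diet. The lowest control-fed male stood well above the highest MCD-fed male. In HepCAV1ko females it had 5.62, 5.37 and 4.77 on the MCD diet, against 6.84, 7.54 and 7.40 on the control diet. In HepCAV1wt females it had 5.57, 4.93 and 5.33 on the MCD diet, against 7.62, 8.12 and 7.68 on the control diet. In all 4 pairs the MCD-fed arrays lay below the control-fed arrays.

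The log2 fold change of Slc22a7 was -2.37 (SE 0.24, adjusted p = 1.35e-06) in HepCAV1ko males and -2.01 (adjusted p = 4.1e-05) in HepCAV1ko females. It was -2.45 (adjusted p = 1.19e-06) in HepCAV1wt males and -2.53 (adjusted p = 1.46e-06) in HepCAV1wt females, levels between 4.02-fold and 5.77-fold lower. The diet effect in males minus that in females was -0.14 (95% confidence interval -0.64 to 0.35, adjusted p = 0.931). Of the 8 genes, Slc22a7 alone passed in all 4 diet comparisons, and each call held when any 1 array was left out. Males had higher values than females in all 4 comparisons of the sexes, with no overlap of arrays. The difference passed in control-fed HepCAV1ko mice (1.16, SE 0.24, adjusted p = 0.011), and there it was lost without control male replicate 2 (adjusted p = 0.0682) or control female replicate 1 (adjusted p = 0.0657). It was 0.75 (adjusted p = 0.159) in control-fed HepCAV1wt mice, 0.79 (adjusted p = 0.327) in MCD-fed HepCAV1ko mice and 0.83 (adjusted p = 0.264) in MCD-fed HepCAV1wt mice. Its pattern over 24 arrays was most like those of Acsm1, a medium-chain acyl-CoA synthetase (r = 0.953), Ces3b, a carboxylesterase (r = 0.951), and Sult2a8, a sulfotransferase (r = 0.937).

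**Figure D4:**
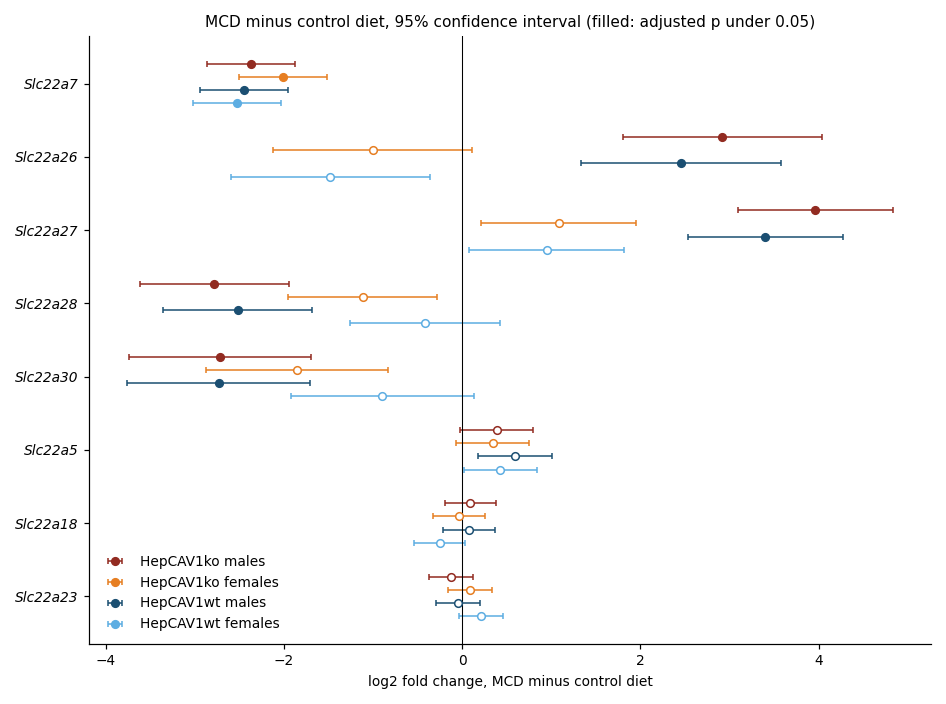
Log2 fold change of the MCD over the control diet (horizontal axis) with its 95% confidence interval for the 8 genes in the 4 combinations of genotype and sex, filled where the adjusted p is under 0.05. Slc22a7 lies between -2.53 and -2.01 in all 4, while the 4 cluster genes are filled in males only and Slc22a5, Slc22a18 and Slc22a23 lie between -0.25 and 0.59.

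Counted together, 2 of the 8 genes were higher and 3 lower on the MCD diet in HepCAV1ko males, where 3.62% of all genes were higher and 3.02% lower (6.64% in either direction). The counts were the same in HepCAV1wt males, where 2.28% of all genes were higher and 2.09% lower (4.37% in either direction). In HepCAV1ko females 0 of the 8 were higher and 1 was lower, where 0.765% of all genes were higher and 0.878% lower (1.64% in either direction). In HepCAV1wt females the counts were likewise 0 and 1, where 2.59% of all genes were higher and 2.34% lower (4.92% in either direction). The median log2 fold change of the 8 genes was -0.02 in HepCAV1ko males, -0.52 in HepCAV1ko females, 0.02 in HepCAV1wt males and -0.33 in HepCAV1wt females. The 2 counts for females rest on Slc22a7. In males Slc22a28 and Slc22a30 count as 2 genes, although their probes may not tell them apart. Since the genes were chosen with earlier results of these data known, the counts are no test of the set. Between the sexes on the control diet, 1 gene was higher in males and 3 were lower in HepCAV1ko, where 0.672% of all genes were higher and 0.81% lower (1.48% in either direction). In HepCAV1wt 1 was higher and 2 were lower, where 0.563% of all genes were higher and 0.708% lower (1.27% in either direction). The HepCAV1ko count fell to 2 without HepCAV1ko control male replicate 2. With 3 arrays a group, the methods' t-test, adjusted over all genes, left 0 of the 8 genes in every diet comparison, where it passed 1 gene of the whole table. At its unadjusted threshold it gave 5 of the 8 in HepCAV1ko males, 4 in HepCAV1ko females, 5 in HepCAV1wt males and 3 in HepCAV1wt females, where 15.3%, 9.76%, 12.9% and 13.4% of all genes passed.

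Slc22a5, or OCTN2, the sodium-dependent carnitine transporter, had higher means on the MCD diet in all 4 combinations, and none passed. It had 6.24, 6.06 and 6.56 in MCD-fed HepCAV1ko males, against 6.13, 5.66 and 5.92 on the control diet, and 6.78, 7.17 and 7.42 in MCD-fed HepCAV1ko females, against 6.50, 7.04 and 6.80 on the control diet. In HepCAV1wt it had 6.96, 6.53 and 6.71 in MCD-fed males, against 6.26, 6.01 and 6.17 on the control diet, and 6.83, 6.24 and 6.87 in MCD-fed females, against 6.41, 5.99 and 6.26 on the control diet. The log2 fold changes were 0.39, 0.34, 0.59 and 0.43 in HepCAV1ko males, HepCAV1ko females, HepCAV1wt males and HepCAV1wt females (adjusted p from 0.108 to 0.576), and only in HepCAV1wt males were the arrays of the 2 diets free of overlap. In HepCAV1ko, males lay below females in every array on either diet. The difference of males minus females was -0.88 (SE 0.20, adjusted p = 0.025) on the control diet and -0.83 (adjusted p = 0.11) on the MCD diet. The control-fed call was lost without replicate 2 or 3 of either sex (adjusted p from 0.079 to 0.162). It was also lost in the linear fit without moderated variances (adjusted p = 0.0585) and with the compared groups fitted alone (limma adjusted p = 0.0904). In HepCAV1wt the difference was -0.07 (adjusted p = 0.946) on the control diet and 0.09 (adjusted p = 0.964) on the MCD diet. The sex difference in HepCAV1ko minus that in HepCAV1wt was -0.81 (SE 0.28, adjusted p = 0.798) on the control diet and -0.92 (SE 0.28, adjusted p = 0.784) on the MCD diet, so that a dependence on genotype did not pass.

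Of the other genes of carnitine supply and use, 7 of 8 listed were measured. In HepCAV1wt, where 2.28% of all genes rose in males and 2.59% in females, 1 of the 7 rose and 0 fell on the MCD diet in each sex. That gene was Crat, the carnitine acetyltransferase, with log2 fold changes of 1.05 (SE 0.27, adjusted p = 0.0243) in males and 1.51 (SE 0.27, adjusted p = 0.00154) in females. In HepCAV1ko 0 of the 7 passed on diet in either sex, with 2 in males and 1 in females at an unadjusted p under 0.05 in limma, where 18.9% and 11.5% of all genes were. Cpt1a, the carnitine palmitoyltransferase of the outer mitochondrial membrane, Slc25a20, the carnitine carrier of the inner one, and Cpt2 did not pass in the diet or control-fed sex comparisons of HepCAV1wt (lowest adjusted p = 0.0547, 0.352 and 0.515). In control-fed HepCAV1ko mice, where Slc22a5 was lower in males, Crat was lower in males as well (-1.40, SE 0.27, adjusted p = 0.00508).

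Slc22a18, an imprinted gene of chromosome 7, and Slc22a23, an orphan member of the family, were nearly level over the 8 groups. The group means of Slc22a18 lay between 7.29 and 7.57 and those of Slc22a23 between 8.75 and 9.02, a span of 0.28 and 0.27. Neither passed in any comparison. The intervals bound the diet differences, which for Slc22a18 reached from -0.54 to 0.38 and for Slc22a23 from -0.37 to 0.46 over the 4 combinations. Of 16 listed genes from the imprinted neighbourhoods of Slc22a18 and Slc22a3, Tnfrsf23, a decoy receptor of the tumour necrosis factor receptor family, rose on the MCD diet in HepCAV1ko males (1.91, adjusted p = 0.0012) and in HepCAV1wt males (1.40, adjusted p = 0.0198). Igf2r, the receptor that clears insulin-like growth factor 2, rose in HepCAV1ko females (0.82, adjusted p = 0.0162) and in HepCAV1wt females (0.61, adjusted p = 0.0494). In each of the 4 diet comparisons these were the 1 gene of the list that rose, and 0 fell. Over these comparisons 0.765% to 3.62% of all genes rose and 0.878% to 3.02% fell.

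**Figure D5:**
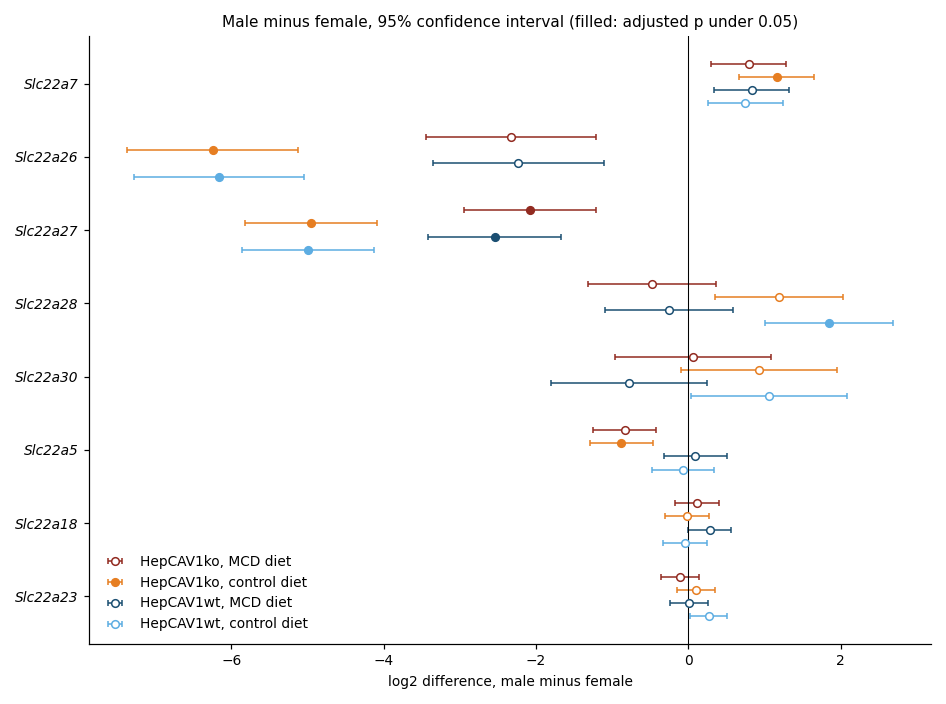
Difference of males minus females in log2 expression (horizontal axis) with its 95% confidence interval for the 8 genes, in both genotypes and on both diets, filled where the adjusted p is under 0.05. For Slc22a26 and Slc22a27 the differences lie near -6 and -5 on the control diet and between -2.55 and -2.08 on the MCD diet.

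Hepatocyte-specific knockout of Cav1 left the 8 genes without a passing difference. In males and in females, on either diet and averaged over all 4, 0 of the 8 passed with limma, where 0% or 0.00405% of all genes passed. At an unadjusted p under 0.05, limma gave 1 gene in MCD-fed males, 1 in MCD-fed females, 0 in control-fed males, 2 in control-fed females and 0 in the average, where 4.23%, 3.92%, 5.48%, 5.57% and 4.99% of all genes did so. The methods' t-test gave 1, in control-fed females, where it gave 4.31% of all genes. Slc22a5 was each of these except for Slc22a7 as the second in control-fed females. Slc22a5 differed by -0.45 in MCD-fed males, 0.48 in MCD-fed females and 0.57 in control-fed females (adjusted p from 0.846 to 1). Averaged over sexes and diets, the differences of HepCAV1ko minus HepCAV1wt lay between -0.34 for Slc22a30 and 0.09 for Slc22a5. The widest intervals of this average were -0.85 to 0.17 for Slc22a30 and -0.53 to 0.59 for Slc22a26. The diet effect in HepCAV1ko minus that in HepCAV1wt did not pass for any of the 8 genes in either sex, and 0 had an unadjusted p under 0.05, where 4.598% of all genes in males and 4.23% in females did. It ranged in males from -0.26 for Slc22a28 to 0.56 for Slc22a27, and in females from -0.96 for Slc22a30 to 0.52 for Slc22a7. Cav1 itself averaged 3.76 in control-fed HepCAV1ko males and 4.42 in control-fed HepCAV1wt males (-0.65, adjusted p = 0.792), and the arrays of the 2 genotypes overlapped. Its difference was -0.45 in control-fed females, -0.05 in MCD-fed males and -0.08 in MCD-fed females, none of which passed. Since endothelial and other cells of the liver also carry Cav1, these values do not check the genotype.

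Of 18 other SLC22 genes listed, 16 were measured, and most were low. Slc22a2, or OCT2, the organic cation transporter of the kidney, was lower in MCD-fed than in control-fed HepCAV1wt males by a log2 fold change of -0.60 (adjusted p = 0.0252), with means of 1.99 and 2.59 that lie at or under the lower quartile of all genes. Slc22a13b was lower in control-fed HepCAV1wt males, at 2.41, than in females, at 3.58 (-1.17, adjusted p = 0.019). Slc22a4, or OCTN1, lay between 4.00 and 4.36 in group mean and did not pass. In each of the other diet comparisons, 0 of the 16 passed in limma, with 1 or 2 at an unadjusted p under 0.05.

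Carriers of choline and of organic cations and known regulators of sex-dependent liver genes were listed as the setting of these transporters. Of 8 choline and cation carriers, 2 fell on the MCD diet in HepCAV1ko males and 1 in HepCAV1wt females, and 0 passed in HepCAV1ko females and HepCAV1wt males, each with 2 at an unadjusted p under 0.05 in limma, where 11.5% and 16.5% of all genes were. Slc44a1, a choline transporter, fell in HepCAV1ko males (-0.52, adjusted p = 0.0166) and HepCAV1wt females (-0.76, adjusted p = 0.00125), and the related Slc44a3 fell in HepCAV1ko males (-0.79, adjusted p = 0.0476), with a log2 fold change of about the same size in HepCAV1wt males (-0.81, adjusted p = 0.0543). Slc47a1, or MATE1, which exports organic cations into bile, was lower in control-fed males than in females by -0.92 in HepCAV1ko (adjusted p = 0.0139) and -0.88 in HepCAV1wt (adjusted p = 0.0204). Of 12 regulators, 2 fell in each diet comparison and 0 rose. Over these comparisons 0.878% to 3.02% of all genes fell and 0.765% to 3.62% rose, and the lists were chosen with earlier results known. Ghr, the growth hormone receptor, fell in all 4, with log2 fold changes from -1.02 in HepCAV1ko males (adjusted p = 3.73e-05) to -0.68 in HepCAV1ko females (adjusted p = 0.00774).

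The other regulator that passed was Stat5b, Onecut1, Cux2 or Ppara, depending on the comparison, but the diet effect in HepCAV1ko minus that in HepCAV1wt did not pass for any of these 4 in either sex (adjusted p from 0.998 to 1). Stat5b, which carries the growth hormone signal to the nucleus, fell in HepCAV1wt females (-0.89, adjusted p = 0.000339), and its log2 fold change in HepCAV1ko females was -0.44 (adjusted p = 0.114). Onecut1, or HNF6, a hepatocyte transcription factor, fell in HepCAV1wt males to 7.03, against 9.35 on the control diet (-2.32, adjusted p = 0.00709), with -0.65 (adjusted p = 0.54) in HepCAV1ko males. On the control diet it was higher in HepCAV1wt males than in females by 2.07 (adjusted p = 0.0369). Cux2, a repressor that is more abundant in female mouse liver, fell in HepCAV1ko females (-1.04, adjusted p = 0.0145), with -0.52 (adjusted p = 0.222) in HepCAV1wt females. Ppara, a nuclear receptor for fatty acids, fell in HepCAV1ko males (-0.38, adjusted p = 0.0332), with -0.24 (adjusted p = 0.261) in HepCAV1wt males. Esr1, the estrogen receptor, was lower in control-fed HepCAV1wt males than in females (-1.36, adjusted p = 0.0355).

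Markers of stellate cells and macrophages, and a few of other cell types, moved with the diet. Of all genes, 3.62% rose on the MCD diet in HepCAV1ko males, 0.765% in HepCAV1ko females, 2.28% in HepCAV1wt males and 2.59% in HepCAV1wt females. Defining hepatocyte markers were high on all arrays, and 0 of 7 passed in any diet comparison, with summed linear levels per array from 46233 to 52603 over all groups. Alb averaged 13.51 in MCD-fed males of both genotypes, near 13.53, the highest value on any array. RMA sets all arrays to 1 distribution, which leaves genes at the top of the scale little room to move. Whether the share of hepatocytes changed was not tested. Of 8 markers of stellate cells, 6 rose in HepCAV1ko males, 1 in HepCAV1ko females, 2 in HepCAV1wt males and 3 in HepCAV1wt females. Their summed level per array was 2227 to 2704 in MCD-fed HepCAV1ko males, against 960 to 1162 on the control diet, and 1861 to 2579 in MCD-fed HepCAV1wt males, against 1185 to 1396 on the control diet. In females it was 2069 to 2717 in MCD-fed HepCAV1ko, against 1385 to 1589 on the control diet, and 2514 to 2733 in MCD-fed HepCAV1wt, against 1495 to 1523 on the control diet. These sums mostly follow the brightest marker, Dcn, with a log2 mean of 10.54 in MCD-fed HepCAV1wt males, where Lrat was next at 8.33. The 2 that rose in HepCAV1wt males were Dcn (0.99) and Lrat (0.81), while Acta2 had -0.57 and did not pass. Of 9 markers of macrophages, 4, 1, 2 and 3 rose in the same order of groups. Their summed level was 1582 to 1843 in MCD-fed HepCAV1ko males, against 866 to 1132 on the control diet, and 1042 to 1835 in MCD-fed HepCAV1wt males, against 797 to 1027 on the control diet. In females it was 943 to 1781 in MCD-fed HepCAV1ko, against 1044 to 1360 on the control diet, and 1382 to 1878 in MCD-fed HepCAV1wt, against 1090 to 1243 on the control diet. Of 6 endothelial markers 1, Lyve1, rose in HepCAV1ko males (0.71, adjusted p = 0.0225), HepCAV1ko females (0.73, adjusted p = 0.045) and HepCAV1wt males (0.96, adjusted p = 0.00305), and 0 passed in HepCAV1wt females. The summed endothelial level of the arrays overlapped between the diets in all 4 comparisons. Of 5 cholangiocyte markers 0 passed in any diet comparison, with 0 or 1 at an unadjusted p under 0.05 in limma. Their summed level was 102 to 114 in MCD-fed HepCAV1ko males, against 85.6 to 90.7 on the control diet, and 81.2 to 90.8 in MCD-fed HepCAV1ko females, against 59.3 to 76.3 on the control diet, and it overlapped between the diets in HepCAV1wt. Of 6 lymphocyte markers 1, Cd3g, fell in HepCAV1ko females (-0.67, adjusted p = 0.018) and 0 passed in the other diet comparisons, and of 4 neutrophil markers 0 passed in any, with 0 to 2 at an unadjusted p under 0.05. The summed neutrophil level was 22.1 to 23.1 in MCD-fed HepCAV1ko males, against 20.0 to 21.5 on the control diet, 23.3 to 24.4 in MCD-fed HepCAV1wt males, against 18.04 to 20.26 on the control diet, and 22.0 to 32.5 in MCD-fed HepCAV1wt females, against 18.5 to 21.3 on the control diet, and it overlapped between the diets in HepCAV1ko females. The part of these changes in the levels of the transporters was not tested, and in whole liver fewer cells of a type and less RNA per cell cannot be told apart. Within groups, the arrays had correlations between 0.981 and 0.991, and in 24 of 24 arrays Xist and Eif2s3y matched the labelled sex.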

How the data were processed

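The authors hybridised whole-liver RNA to Affymetrix MoGene 2.0 ST arrays and deposited log2 values from RMA, which corrects the background, sets all arrays to 1 distribution and summarises probes per gene; its version and probe set definition are not given in the sources used here. Each sample is 1 array, and the number of arrays limits the precision. Of 25428 features, 24705 had a symbol in the platform annotation and 723 were unnamed; for the 1 symbol with several features the brighter was kept, leaving 24704 genes. limma 3.58.1 in R 4.3.3 fitted 1 mean per group to all 24 arrays (lmFit and eBayes, 16 residual degrees of freedom), with Benjamini-Hochberg adjustment over all genes and calls at an adjusted p under 0.05. Intervals are 95% confidence intervals of this fit. Data were simulated with each gene's own spread and independent normal noise, for MCD against control diet in HepCAV1ko males. Of 50 genes changed by 1 log2 unit 90% were recovered, and of 50 changed by 2 it was 98%. The changed genes were drawn at random from all 24704, so these shares do not give the recovery for the transporters. A transporter difference that did not pass is therefore not shown to be absent. The 9 genes and the gene lists were chosen with earlier results of these data known; Slc22a13b joined its list when the annotation was read. All 9 genes are described; from each list up to 4 genes with the lowest adjusted p in the HepCAV1wt diet comparisons or the control-fed HepCAV1wt sex comparison are named, and other list genes that passed (Slc44a3, Cux2, Ppara) were named after their values were seen. For genes whose group means span over 2 log2 units, the 3 most correlated genes are named. Promoter windows are from RefSeq (GRCm38.p6), which held 8 of the 9 genes.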

Additional observations from a re-analysis of the deposited data

Results flagged for a closer look

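Of the 8 transporters, 3 were singled out because their response to the MCD diet differed between the sexes in the test of that difference, averaged over genotypes. The diet effect in males minus that in females was 3.93 for Slc22a26 (limma adjusted p = 3e-04), with a rise in all 6 MCD-fed males above every control-fed male and lower values in all 6 MCD-fed females than in control-fed females of the same genotype. It was 2.67 for Slc22a27 (adjusted p = 0.00154), with higher values on the MCD diet in both sexes. It was -1.88 for Slc22a28 (adjusted p = 0.0302), with lower values in all 6 MCD-fed males than in every control-fed male. This last call was lost without moderated variances (adjusted p = 0.124) and with a mean-variance trend and robust moderation in limma (adjusted p = 0.0591). It was also lost with some single arrays left out (limma adjusted p up to 0.0663). Groups of 3 arrays are too small to single out 1 array as lying apart from its group.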

How the results depend on the processing

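Under settings other than leaving out 1 array, 492 of the recomputed diet and sex values of 6 transporters kept their side of the threshold, 8 newly passed and 28 no longer passed, and none changed sign. The rises of Slc22a27 and the falls of Slc22a28 and Slc22a30 in MCD-fed males passed with every limma setting tried and with any 1 array left out, and Slc22a7 did so in all 4 diet comparisons; the methods' t-test, adjusted over all genes, passed none of these. By that test the count of transporters passed was 0 in each diet comparison, 0 between the sexes on the MCD diet in either genotype, and 1 between the sexes on the control diet in either genotype; the cause was not tested. For the diet in HepCAV1ko females the count was 2 with array weights, with the genes above the median expression alone, with the compared groups alone and with the replicate number as a block. For the diet in HepCAV1wt females it was 3 with the compared groups alone. Between the sexes on the MCD diet in HepCAV1ko it was 0 without moderated variances and with a mean-variance trend, and 2 with array weights, and in HepCAV1wt it was 2 with array weights and 0 with the compared groups alone; the cause was not tested. With 1 array left out, the count ranged from 1 to 2 for the diet in HepCAV1ko females, from 0 to 2 and from 1 to 2 between the sexes on the MCD diet in HepCAV1ko and HepCAV1wt, and from 2 to 4 between the sexes on the control diet in HepCAV1ko. Leaving out 1 array also turned the sign of small differences between the sexes that did not pass: on the MCD diet they ranged from -0.61 to 0.15 for Slc22a28 in HepCAV1wt, from -0.29 to 0.51 for Slc22a30 in HepCAV1ko and from -0.11 to 0.20 for Slc22a5 in HepCAV1wt, and on the control diet from -0.19 to 0.025 for Slc22a5 in HepCAV1wt.

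The labels repeat the numbers 1 to 3 in every group without saying what they share. Deviations from group means correlated at a median of 0.03 (from -0.14 to 0.25) over 84 pairs of arrays with the same number, with a median of -0.0054 over pairs with different numbers. Since 16 of the 84 pairs, and not all, were over 0.1, the numbers were not taken as pairs, although 14 of 24 arrays were closest to their own number, a hint from the data that some arrays with the same number vary together. With the replicate number as a block, Slc22a30 passed in HepCAV1ko females (log2 fold change -1.85, adjusted p = 0.0308), and the block changed no other call of a transporter. Neither quantile normalization again nor centring each array on its median changed a call. Only normalized values were used here, so that signal over background, which limits genes as low as Slc22a27 in control-fed males, is unknown.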

Other observations

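The genes whose pattern ran most opposite to Slc22a27 over the 24 arrays were C6, a complement component (r = -0.973), Cyp7b1, an oxysterol 7-hydroxylase (r = -0.960), and Hsd3b5, a steroid dehydrogenase (r = -0.958). For Slc22a26 they were Uty, Cyp2d9 and Scp2 (r = -0.929, -0.924 and -0.924). For Slc22a7 they were Idh2, the mitochondrial isocitrate dehydrogenase (r = -0.939), Dcn, a proteoglycan that stellate cells make (r = -0.930), and Car2, a carbonic anhydrase (r = -0.922). These genes were chosen after their values were seen, and the correlations describe arrays that share sex and diet groups. Over the 6 MCD-fed males, the correlation of Slc22a28 with Slc22a26 was 0.0062 and with Slc22a27 0.15, and that of Slc22a30 was 0.61 with Slc22a26 and 0.70 with Slc22a27.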
